A study of Homo sapiens with 9 samples.

Results

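Small nucleolar RNAs (snoRNAs), small Cajal body RNAs (scaRNAs) and the small nuclear RNAs of the spliceosome were followed across 9 whole-transcript arrays of HCT 116 cells, a human colorectal cancer line. The genes were those whose symbol starts with SNORA, SNORD, SCARNA or RNU and for which a probe set named 1 gene. A gene with several such probe sets is represented by the brightest of them, judged by its mean on all 9 arrays. By this rule 219 of the 17958 genes measured belong here: 67 SNORA, 121 SNORD, 16 SCARNA and 15 RNU genes. The cells had been transfected with a vector for mouse full-length klotho (KL-FL), with a vector for the KL1 subdomain of mouse klotho, or with the empty vector pcDNA3 as control, and RNA was taken 24 hours later. Klotho is a membrane protein best known as a co-receptor of the hormone FGF23. Each group had 3 arrays, and all arrays came from the same cell line, in which the vectors were expressed transiently. The labels name JetPEI or polyethylenimine as the transfection reagent without saying which sample received which. Nor do they state that replicates came from different cultures, and the p-values therefore reflect array-to-array spread that could be purely technical. The question here is whether these short RNAs differed between the 3 groups, class by class, and whether single arrays carried the differences.

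Box C/D snoRNAs (SNORD genes) guide methylation of the ribose, and box H/ACA snoRNAs (SNORA genes) guide pseudouridylation, mostly of ribosomal RNA. Most of them are cut out of the introns of host genes, many of which encode ribosomal proteins or are non-coding. The scaRNAs carry the same boxes, sit in Cajal bodies and guide the modification of spliceosomal RNAs. U2, U4, U5 and their variants are RNAs of the major spliceosome, and U11, U12, U4atac and U6atac belong to the minor spliceosome, which removes a rare class of introns. Spliceosomal RNAs come from their own genes, most of them through RNA polymerase II, and none of these mature RNAs has a poly(A) tail. A whole-transcript array can read such RNAs, but its protocol is not made for very short ones.

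The sequence that defines box H/ACA RNAs, the ACA box near the 3′ end, is shown for the pair of genes whose RNA overlaps a microRNA hairpin in the RefSeq tables (GRCh38.p14). SCARNA16, a scaRNA of 187 bases, overlaps the MIR6516 hairpin at chr17:77089417-77089497 on the plus strand over 77 of the hairpin's 81 bases. SNORA36A, 132 bases long, lies in the span of DKC1 and contains the whole MIR664B hairpin of 61 bases at chrX:154768596-154768656 on the plus strand. The capitals mark the ACA that ends 3 bases before the 3′ end of the host RNA.
MIR6516 hairpin in SCARNA16: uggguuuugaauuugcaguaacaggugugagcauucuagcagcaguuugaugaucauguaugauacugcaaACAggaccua
MIR664B hairpin in SNORA36A: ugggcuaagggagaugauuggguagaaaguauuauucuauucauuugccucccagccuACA
The letters ACA occur somewhere in 63.0% of the 1560 hairpins in that table, so the match describes the position and is not evidence of function. DKC1, the host of SNORA36A, encodes dyskerin, the pseudouridine synthase of the H/ACA particle itself. Neither gene passed the test in any comparison. SCARNA16 read 6.59, 6.60 and 6.53 on the control arrays, 6.49, 6.67 and 6.59 on the KL-FL arrays, and 6.60, 6.61 and 6.68 on the KL1 arrays.

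All values are log2 expression as deposited, where a difference of 1 is a doubling. A gene is called bright here when its mean over the 9 arrays is at or above the median of all genes, 5.39. A bright probe set is not proof of an abundant RNA, and levels of different probe sets are not compared. Of the 219 genes 91 were bright: 32 of 67 SNORA, 45 of 121 SNORD, 7 of 16 SCARNA and 7 of 15 RNU genes. The RNAs are short, with a median length of 134 bases for SNORA, 81 for SNORD, 226.5 for SCARNA and 130 for RNU genes. The SNORD113 to SNORD116 repeats, made from imprinted clusters on chromosomes 14 and 15 and known mainly from brain, were 50 of the 121 SNORD genes. None of them was bright, with a median level of 2.35 and a highest of 4.34. Array medians over all genes ran from 5.38 to 5.42. Epithelial markers were at or above the median level for 9 of 11 genes, while 1 of 10 fibroblast and endothelial, 1 of 8 leukocyte and 0 of 5 neuronal markers were. The epithelial markers were also lower on KL-FL replicate 3, with a median of -0.15 from the control mean and 8 of 11 below all 3 controls. On that array 34.6% of all genes, and 44.7% of the bright genes outside the 219, were below all 3 controls. The part of the epithelial markers in the values below was not tested. In bulk RNA, fewer cells of a type and less RNA per cell cannot be told apart. The human KL probe set, whose reading of the mouse transgenes was not tested, read low, at 3.05, 3.06 and 3.03 on the control arrays. It read 3.22, 3.21 and 3.13 on KL-FL and 3.27, 3.18 and 3.13 on KL1 arrays, all above every control. Such separation upward held for 7.13% of all genes in KL-FL and 5.13% in KL1. The difference from control was 0.14 for KL-FL (SE 0.04, limma adjusted p = 0.64) and 0.15 for KL1 (SE 0.04, limma adjusted p = 0.93).

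In none of the 3 comparisons did any of the 219 genes pass limma's test at an adjusted p under 0.05. Over all 17958 genes 1 passed for KL-FL against control (0.00557%), 1 for KL1 against control (0.00557%) and 0 for KL-FL against KL1 (0.0%). The smallest adjusted p among the small RNA genes was 0.577 for KL-FL against control, 0.821 for KL1 against control and 0.855 for KL-FL against KL1. A pair of arrays, KL-FL replicate 3 and KL1 replicate 2, stood apart from the rest for these RNAs and, by less, over all genes. The median correlation of KL-FL replicate 3 with the other arrays was 0.997 over all genes and 0.942 over the bright small RNA genes. For KL1 replicate 2 it was 0.9979 and 0.970, and for the other 7 arrays at least 0.9986 over all genes. Over the bright small RNA genes it was 0.9898 for KL-FL replicate 1 and at least 0.9928 for the rest. The results below are therefore given array by array and with and without these arrays.

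**Figure D1:**
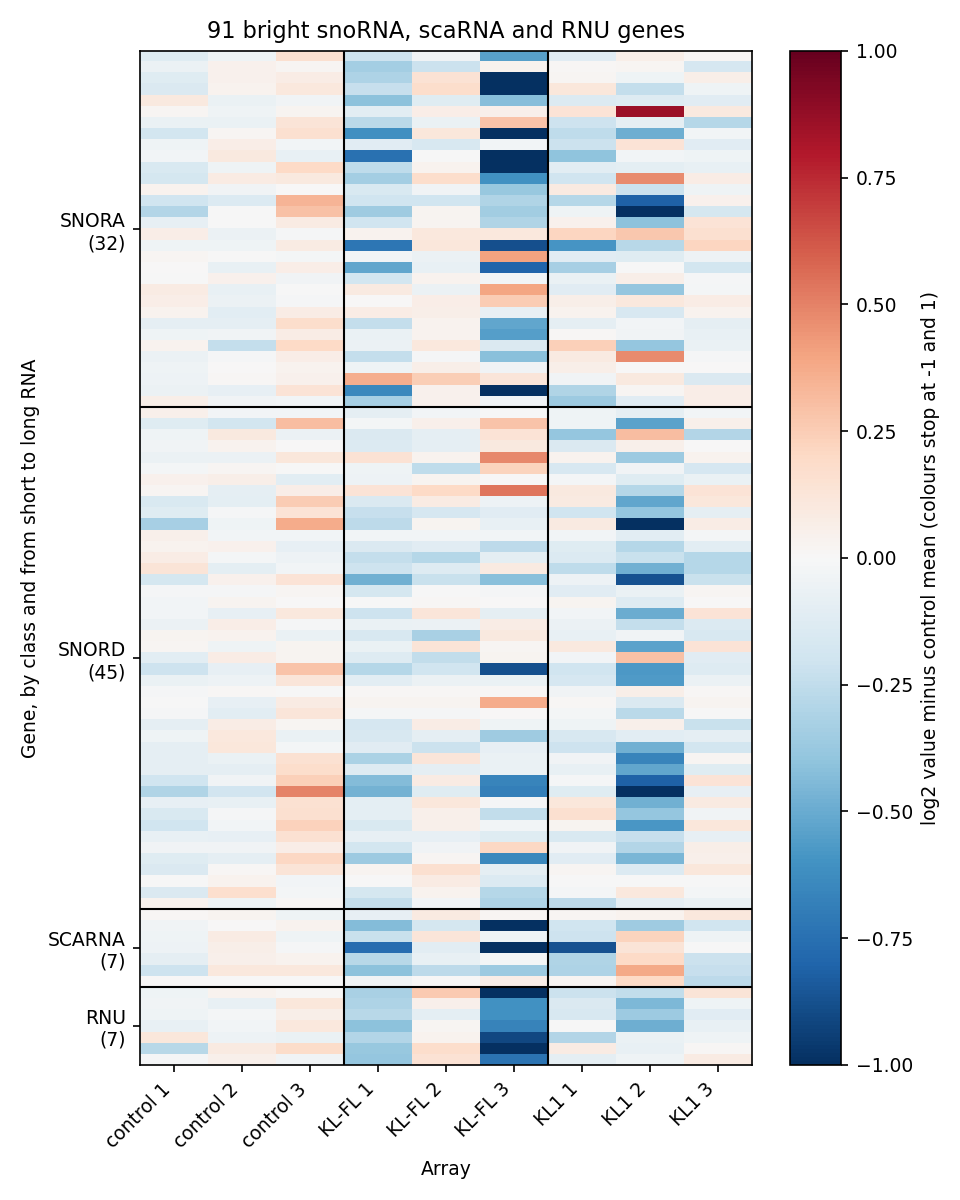
Log2 values of the 91 bright genes (rows, by class and from short to long) on the 9 arrays (columns), each minus the mean of the 3 controls; blue is lower and red is higher than the control mean, and colours stop at -1 and 1. KL-FL 3 is blue for all 7 RNU genes and many SNORA genes, KL1 2 for many SNORD genes, and KL-FL 1 is pale blue for most genes.

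The RNU genes had the largest class difference for KL-FL against control. The median difference of the 15 RNU genes between KL-FL and control was -0.33 on the log2 scale, against 0.01 for all genes. Of the 15 genes 12 were lower, beside 7653 of all 17958 genes. For the 12 that are spliceosomal RNA genes by annotation the median was -0.37 and all 12 were lower. At an unadjusted limma p under 0.05, 0 RNU genes were higher and 3 lower (20.0%, against 7.16% of all genes, with 4.88% higher and 2.28% lower). For the 7 bright RNU genes the median difference was -0.35 and all 7 were lower. The size depended on which KL-FL arrays were used. Without KL-FL replicate 3 the median of the 15 genes was -0.12 and of the 7 bright ones -0.13, with 0 at an unadjusted p under 0.05 (8.24% of all genes, 1.66% lower). Without replicate 2 the median of the 15 was -0.54, with 1 higher and 9 lower at an unadjusted p under 0.05, the 7 bright genes among them (9.56% of all genes, 4.82% lower). On replicate 1 all 7 bright genes were also below all 3 controls, with a median of -0.33, as were 19.0% of all genes and 19.9% of other bright genes. All 7 bright RNU genes had their lowest value of the 9 arrays on KL-FL replicate 3, where 31.5% of the other bright genes had theirs.

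RNU2-1, the U2 RNA that pairs with the branch site, read 10.88, 10.95 and 10.86 on the control arrays, 10.51, 11.04 and 10.16 on the KL-FL arrays, and 10.81, 10.85 and 10.98 on the KL1 arrays. The KL-FL arrays thus lay on both sides of the control range, with replicate 2 above it and replicates 1 and 3 below. The fitted difference from control was -0.33 (SE 0.18, limma adjusted p = 0.71). It was -0.56 when KL-FL replicate 2 was left out and -0.12 when replicate 3 was. RNU4-1, a U4 RNA, which chaperones U6 in the tri-snRNP, read 8.51, 8.88 and 8.97 on the control arrays and 8.40, 8.97 and 7.17 on the KL-FL arrays. Its KL1 values were 8.87, 8.72 and 8.80, within the control range. The value on KL-FL replicate 3 was below every other array, and the KL-FL difference went from -0.61 to -0.10 without that array and to -0.998 without replicate 2. RNU4-2, the other U4 gene, was dim and read 2.86 on KL-FL replicate 3 against 3.77, 4.35 and 4.87 on the controls; its KL-FL difference turned from -0.41 to 0.12 without that array.

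U5 RNA, which holds the exon ends at the core of the spliceosome, is made from several gene copies. RNU5A-1 read 6.21, 6.18 and 6.36 on the control arrays, 5.94, 6.30 and 5.65 on the KL-FL arrays and 6.11, 5.80 and 6.21 on the KL1 arrays. RNU5B-1 read 5.88, 5.95 and 5.93 on control, 5.59, 6.18 and 4.83 on KL-FL, and 5.71, 5.68 and 6.05 on KL1 arrays. Both had KL-FL replicate 2 at the control level or above it and replicates 1 and 3 below every control. RNU5E-1 was 10.89, 10.91 and 11.00 on control against 10.65, 10.84 and 10.33 on KL-FL arrays, so that the groups did not overlap; the difference was -0.33 (SE 0.12, limma adjusted p = 0.69) and -0.19 without KL-FL replicate 3. RNU5D-1 and RNU5F-1, with means below 5.39, had the largest pooled spread of the RNU genes. RNU5F-1 read 4.70, 5.11 and 5.46 on control, 3.79, 4.75 and 2.57 on KL-FL and 4.40, 3.63 and 4.70 on KL1 arrays. RNU5D-1 ran from 4.87 to 6.12 on control and from 2.99 to 5.07 on KL-FL arrays, a difference of -1.53 (SE 0.58, limma adjusted p = 0.69). These copies are near-identical in sequence, so the array may not separate them.

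Of the minor spliceosome, U4atac (RNU4ATAC) read 8.52, 8.57 and 8.70 on control, 8.19, 8.61 and 7.93 on KL-FL, and 8.59, 8.11 and 8.52 on KL1 arrays. U11 (RNU11), which recognises the 5′ splice site of the rare introns, read 6.16, 5.99 and 5.98 on control and 5.75, 6.07 and 5.13 on KL-FL arrays. U12 (RNU12), the branch-site partner, was dim and read 4.54, 4.48 and 4.50 on control and 4.51, 4.55 and 4.05 on KL-FL arrays; its difference of -0.14 became 0.02 without KL-FL replicate 3. U6atac (RNU6ATAC) did not follow the others, with its lowest value, 4.49, on KL-FL replicate 2 and its highest KL-FL value, 4.93, on replicate 3. RNU105B and RNU105C are annotated as snoRNAs in spite of their symbols, and RNU6-501P as a pseudogene. RNU105B was highest on KL-FL replicate 3, at 5.28 against 4.68 to 4.75 on the controls.

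**Figure D2:**
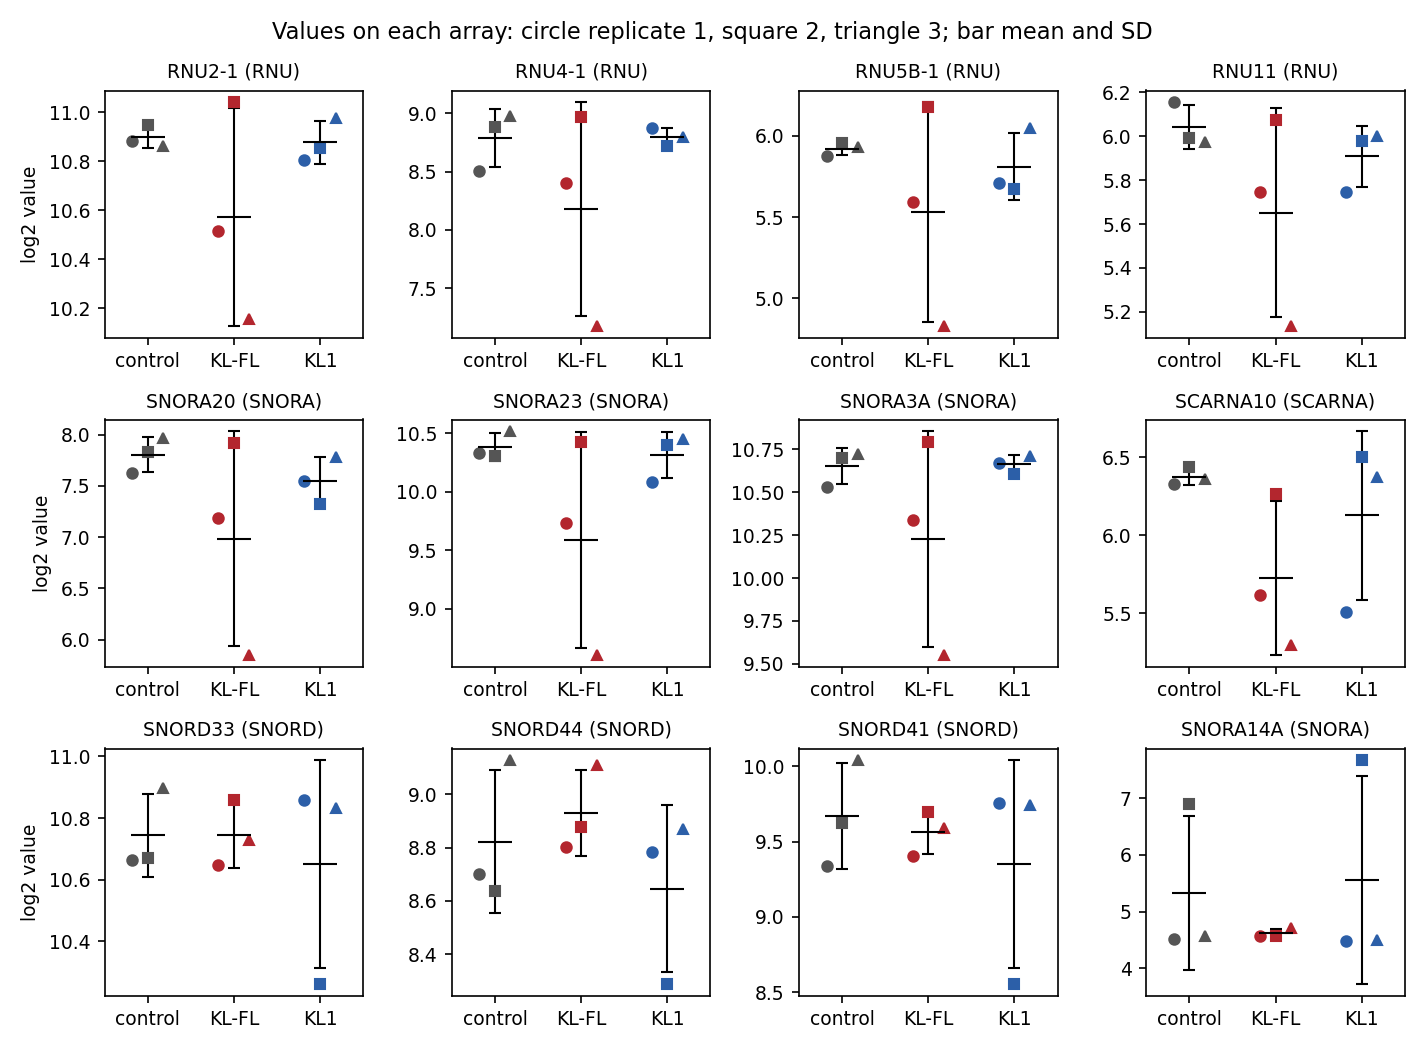
Log2 values of 12 genes on each array, by group (horizontal axis), with a symbol for each replicate number, the group mean and the SD as error bars (n = 3 arrays a group). The KL-FL triangle (replicate 3) is low for the RNU genes, SNORA20, SNORA23, SNORA3A and SCARNA10, the KL1 square (replicate 2) for SNORD33, SNORD44 and SNORD41, and SNORA14A is high on the squares of control and KL1.

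The H/ACA snoRNA genes had a median difference of -0.06 between KL-FL and control over all 67, and -0.19 over the 32 bright ones, 25 of which were lower. At an unadjusted p under 0.05, 3 were higher and 4 lower (10.4%, against 7.16% of all genes). The bright median was -0.22, 0.04 and -0.33 on KL-FL replicates 1, 2 and 3, and for the group -0.10 without replicate 3 and -0.26 without replicate 2. Without replicate 2, 3 of the 67 were higher and 20 lower at an unadjusted p under 0.05, with 9.56% of all genes. On KL-FL replicate 3, 18 of the 32 lay more than 0.3 below the control mean, against 5.52% of other bright genes, and 15 of the 32 had their lowest value of all arrays there. SNORA23, in the span of the importin gene IPO7, read 10.33, 10.30 and 10.52 on control, 9.74, 10.43 and 8.60 on KL-FL and 10.09, 10.40 and 10.45 on KL1 arrays. SNORA20, in the span of the chaperonin gene TCP1, read 7.63, 7.83 and 7.96 on control and 7.19, 7.92 and 5.85 on KL-FL arrays, while its KL1 values ran from 7.32 to 7.78. For both genes KL-FL replicate 2 was in the control range, replicate 1 was below it and replicate 3 was far below it. The difference from control was -0.79 for SNORA23, -0.30 without replicate 3 and -1.21 without replicate 2, and for SNORA20 it was -0.82, -0.25 and -1.29. SNORA3A, in the span of RPL27A, read 10.53, 10.70 and 10.72 on control and 10.34, 10.79 and 9.55 on KL-FL arrays. SNORA68, named after its values were seen, was at 7.55 on KL-FL replicate 3 and between 8.89 and 9.34 on the other 8 arrays.

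Other H/ACA genes had values that differed more evenly or the other way. SNORA3B, the neighbour of SNORA3A in RPL27A, had the smallest p of the lower genes: it read 6.74, 6.58 and 6.62 on control and 6.24, 6.52 and 6.22 on KL-FL arrays, a difference of -0.32 (SE 0.08, limma adjusted p = 0.58). The groups did not overlap, and the difference was -0.27 without KL-FL replicate 3. SNORA41, in the span of the elongation factor gene EEF1B2, read 4.17, 4.30 and 4.14 on control and 3.39, 4.02 and 3.36 on KL-FL arrays. SNORA62, in the span of RPSA, a ribosomal protein gene, went the other way: it read 7.07, 7.14 and 7.16 on control and 7.49, 7.37 and 7.24 on KL-FL arrays, a difference of 0.24 (SE 0.07, limma adjusted p = 0.67). SNORA29 and SNORA80B, both dim, also had higher values on the KL-FL arrays, with differences of 0.25 and 0.11. SNORA14A, in the span of POR, was high on 2 arrays of different groups, at 6.89 on control replicate 2 and 7.68 on KL1 replicate 2, and between 4.49 and 4.70 on the other 7.

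The scaRNA genes had a median KL-FL difference of -0.12, with 11 of 16 lower and 2 at an unadjusted p under 0.05, both lower (12.5%, against 7.16% of all genes). The median was -0.063 without KL-FL replicate 3, -0.072 without replicate 1 and -0.16 without replicate 2. For KL1 it was -0.028, and it turned to 0.052 without KL1 replicate 1 and 0.019 without replicate 3. SCARNA12, the brightest of them and in the span of the prohibitin gene PHB2, read 10.34, 10.38 and 10.40 on control, 9.94, 10.20 and 9.36 on KL-FL and 10.18, 10.02 and 10.18 on KL1 arrays. Every KL-FL and KL1 value was below every control value; the KL-FL difference was -0.54 (SE 0.17, limma adjusted p = 0.69) and -0.31 without KL-FL replicate 3. SCARNA10, in the span of the condensin gene NCAPD2, was low on 3 arrays, at 5.62 and 5.29 on KL-FL replicates 1 and 3 and at 5.51 on KL1 replicate 1, and between 6.27 and 6.50 on the others. SCARNA17 read 6.82 on all 3 control arrays and 6.78, 6.82 and 6.88 on KL-FL arrays. SCARNA6, dim, was highest on KL1 replicate 2, at 5.72 against 3.83 to 4.76 elsewhere. On KL1 replicate 2 the 7 bright scaRNAs had a median of 0.20 above the control mean, whereas SNORD genes were low there.

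The box C/D snoRNA genes had a median KL-FL difference of -0.01 over 121 genes and -0.06 over the 45 bright ones. Of the 121, 1 was higher and 5 were lower at an unadjusted p under 0.05 (4.96%, against 7.16% of all genes). The brightest of them lay close to control. SNORD13, which takes part in ribosomal RNA acetylation, read 11.20, 11.36 and 11.48 on control and 11.37, 11.51 and 11.25 on KL-FL arrays. SNORD57, in the span of the C/D core protein gene NOP56, stayed between 10.74 and 10.80 on every control and KL-FL array. SNORD49A read 6.70, 6.61 and 6.57 on control against 6.39, 6.34 and 6.53 on KL-FL and 6.49, 6.41 and 6.35 on KL1 arrays, so that every klotho array was below every control. SNORD58A, in the span of RPL17, read 5.46, 5.39 and 5.996 on control, 5.16, 5.15 and 5.07 on KL-FL, and 5.19, 4.97 and 5.17 on KL1 arrays, a difference of -0.49 (SE 0.14, limma adjusted p = 0.64) for KL-FL that was -0.30 without control replicate 3. SNORD78 and SNORD95, named after their values were seen, had their highest values on KL-FL replicate 3, at 8.87 and 7.87.

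Taking the 219 genes as a whole, 18 had an unadjusted p under 0.05 for KL-FL against control, 4 higher and 14 lower. Over all genes the share was 7.16%, made of 4.88% higher and 2.28% lower, so the total of 18 (8.22%) was near the background while more of the members than of all genes were on the lower side. The groups did not overlap for 7 genes that were higher and 15 that were lower, 10.0% of the members against 10.4% of all genes (7.13% higher and 3.25% lower). The median difference was -0.03 over all 219 genes and -0.10 over the bright ones, 73 of 91 of which were lower, beside 4337 of 8888 other bright genes. The bright median was -0.18, 0.02 and -0.08 on KL-FL replicates 1, 2 and 3. KL-FL replicate 1 did not stand apart in its correlation over all genes, at 0.9988. Over the bright small RNA genes its correlation, 0.9898, was the lowest after KL-FL replicate 3 and KL1 replicate 2. KL-FL replicate 1 was below all 3 controls for 70 of the 91 bright genes (76.9%), against 19.0% of all genes and 19.9% of other bright genes. The same count was 22 on replicate 2 (24.2%, with 13.6% of all genes). On replicate 3 it was 42 (46.2%), near the 44.7% of other bright genes, with 34.6% of all genes. Leaving out KL-FL replicate 2 raised the members at an unadjusted p under 0.05 from 18 to 49, of which 42 were lower, while over all genes the share rose from 7.16% to 9.56%, with 4.82% lower. Array weights gave KL-FL replicate 1 by far the most weight, 6.76, and replicate 3 the least, 0.265, with 0.554 for replicate 2. The weighted KL-FL mean thus rests mainly on 1 array. With these weights limma's adjusted test called 15 of the 219 members, 5 higher and 10 lower. Of all genes it called 523 (2.91%), 389 higher and 134 lower. Among the 10 lower were RNU5D-1, RNU5E-1, RNU5F-1, SCARNA12, SNORA3B and SNORD49A. The 5 higher were SNORA62, SNORA29, SNORD115-44, SNORD116-22 and SNORD116-28, and all but SNORA62 were dim. The controls themselves were not at 1 level, with bright medians of 0.016, 0.069 and 0.118 above the 9-array mean on replicates 1, 2 and 3.

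**Figure D3:**
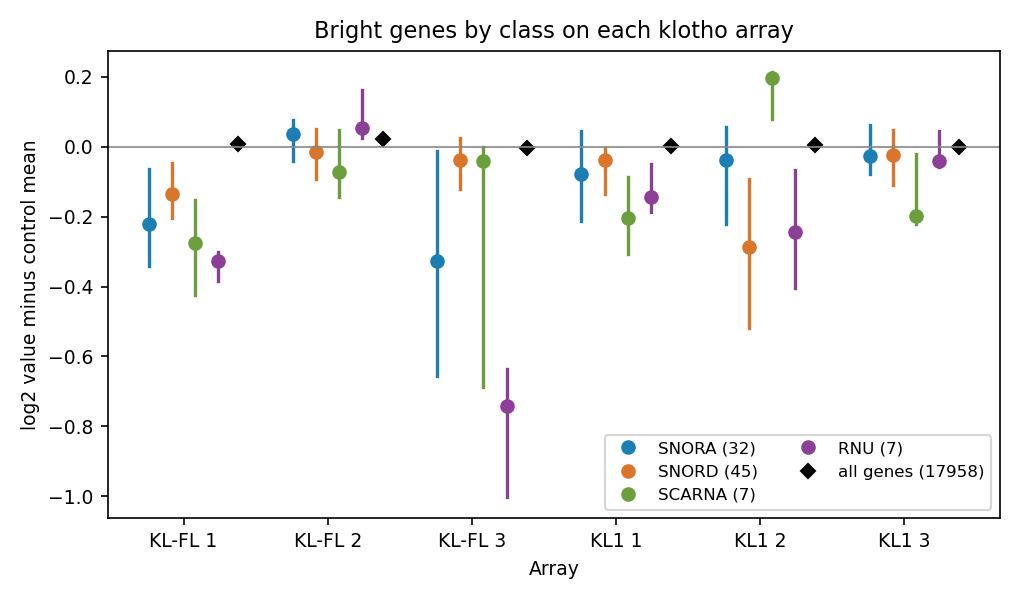
Median difference from the control mean (log2, vertical axis) of the bright genes of each class on each of the 6 klotho arrays, with lines from the lower to the upper quartile over genes; diamonds are the median of all 17958 genes. RNU genes sit at -0.33, 0.05 and -0.74 on KL-FL 1, 2 and 3, SNORD genes at -0.29 on KL1 2, and all genes stay within 0.03 of 0.

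For KL1 against control most of the members at an unadjusted p under 0.05 were box C/D genes, although their median was not the lowest: it was -0.11 for RNU genes (-0.13 over the bright ones) and -0.05 for SNORA genes. The median difference was -0.04 over the 121 SNORD genes and -0.12 over the 45 bright ones, with 42 of 45 lower. Of other bright genes 5273 of 8888 were lower. Over the 71 SNORD genes outside the imprinted repeats the median was -0.12, with 63 of 71 lower, beside 8577 of all 17958 genes. The 50 imprinted repeats had a median of 0.0018, beside 0.0026 for all genes. Over all 219 genes the median was -0.05, and 19 genes had an unadjusted p under 0.05, 2 higher and 17 lower. All genes gave 5.1%, made of 2.99% higher and 2.11% lower. Of the 17 lower genes 16 were SNORD genes. The groups did not overlap for 6 higher and 25 lower members, 14.2% against 9.47% of all genes (5.13% higher and 4.34% lower). With the replicate numbers as a block, 24 members had an unadjusted p under 0.05, 0 members passed limma's adjusted test and the 1 gene called over all genes was lost, leaving 0. The block was fitted to all 9 arrays, and the numbers do not pair the KL-FL arrays, so this is not a fit of the paired comparison alone. The share of all genes at that p with the block is not given. Apart from the block, the KL1 values here take no account of pairing. Over the members, deviations from the group mean correlated between control and KL1 arrays of like number, at 0.108, 0.689 and 0.598.

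The lower SNORD values rested in large part, but not wholly, on KL1 replicate 2. The bright SNORD median was -0.04, -0.29 and -0.02 on KL1 replicates 1, 2 and 3, and -0.04 for the group without replicate 2. Without it 30 of the 45 were still lower, beside 8792 of all 17958 genes, with the count of other bright genes not given. Of all 121 SNORD genes 3 were then higher and 7 lower at an unadjusted p under 0.05, and of all 17958 genes 462 and 433. For 13 of the 71 SNORD genes outside the imprinted repeats every KL1 array was below every control (18.3%, against 4.34% of all genes and 599 of 8888 other bright genes). Of the 45 bright SNORD genes 29 had their lowest value of the 9 arrays on KL1 replicate 2, against 15.2% of other bright genes, and 36 lay below all 3 controls there (80.0%, with 24.4% of all genes and 32.2% of other bright genes). The same count was 16 on KL1 replicate 1 (35.6%, with 23.4% of all and 26.8% of other bright genes). On replicate 3 it was 15 (33.3%, with 25.4% of all genes), below the 35.1% of other bright genes. SNORD33, in the span of RPL13A, read 10.66, 10.67 and 10.90 on control, 10.65, 10.86 and 10.73 on KL-FL, and 10.86, 10.26 and 10.83 on KL1 arrays. SNORD44, in GAS5 and often used as a reference RNA in microRNA assays, read 8.70, 8.64 and 9.13 on control, 8.80, 8.88 and 9.11 on KL-FL, and 8.78, 8.29 and 8.87 on KL1 arrays. In both genes KL1 replicates 1 and 3 were within the control range and replicate 2 was below it. SNORD41 and SNORA22, named after their values were seen, were at 8.55 and 8.42 on KL1 replicate 2 and at or above 9.34 and 9.24 on the other 8 arrays.

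Some differences did not depend on that array. SNORD54, in the span of RPS20, read 4.69, 4.87 and 4.74 on control and 4.55, 4.60 and 4.51 on KL1 arrays, a difference of -0.21 (SE 0.06, limma adjusted p = 0.93) and -0.24 without KL1 replicate 2. SNORD45B, in the span of RABGGTB, read 6.13, 5.91 and 5.98 on control and 5.75, 5.53 and 5.73 on KL1 arrays, a difference of -0.34 (SE 0.09, limma adjusted p = 0.93) and -0.27 without it. On the other side SNORA80A read 5.37, 5.25 and 5.30 on control and 5.52, 5.58 and 5.47 on KL1 arrays, with the smallest adjusted p of the members, 0.82, for a difference of 0.21 (SE 0.04). SNORA38B had a difference of 0.36 that was 0.11 without KL1 replicate 2, reading 6.16, 6.88 and 6.12 on KL1 against 6.04, 5.99 and 6.05 on control arrays. In the RNU class the median KL1 difference was -0.11 over 15 genes, with 0 at an unadjusted p under 0.05.

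Between KL-FL and KL1 the class medians differed in sign: -0.03 for SNORA, 0.02 for SNORD, -0.05 for SCARNA and -0.16 for RNU genes. Among bright genes they were -0.13 for SNORA, 0.05 for SNORD and -0.26 for RNU genes. These signs did not hold without single arrays: the RNU median was 0.0011 without KL-FL replicate 3 and the bright SNORD median -0.014 without KL1 replicate 2. Without both arrays the SCARNA median was 0.013 and the RNU median -0.04. Of the 219 genes 19 had an unadjusted p under 0.05, 13 higher and 6 lower in KL-FL, against 3.49% of all genes higher and 1.55% lower (5.05% in all). The groups did not overlap for 7 higher and 3 lower members, 4.57% against 6.88% of all genes (4.67% higher and 2.21% lower). SNORD59A and SNORD59B, both in the span of the ATP synthase gene ATP5F1B, were higher in KL-FL: SNORD59A read 3.90, 3.81 and 4.12 on KL-FL and 3.76, 3.33 and 3.56 on KL1 arrays, a difference of 0.39 (SE 0.13, limma adjusted p = 0.85) that was 0.20 once KL-FL replicate 3 and KL1 replicate 2 were left out. SNORA57 was lower in KL-FL, at 6.79, 7.02 and 6.61 against 7.11, 7.50 and 7.02 on KL1 arrays, a difference of -0.41 and -0.16 without those 2 arrays. Leaving out both KL-FL replicate 3 and KL1 replicate 2 left 11 of the 219 members at an unadjusted p under 0.05, and 5.87% of all genes.

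Over the bright genes of all classes together, values on KL-FL replicate 3 and KL1 replicate 2 went with RNA length, in opposite directions. Within SNORD genes this held on KL-FL replicate 3 and not on KL1 replicate 2. Within SNORA genes the correlation was weak on both arrays, and its sign on KL-FL replicate 3 was turned. Of the 41 bright genes of up to 100 bases, all of them SNORD, the median was -0.02 on KL-FL replicate 3 and -0.30 on KL1 replicate 2. Of the 39 over 100 and up to 150 bases it was -0.38 and -0.09, and of the 11 longer ones -0.04 and 0.10. Across the 91 bright genes Spearman's rho between length and deviation from the 9-array mean was -0.42 on KL-FL replicate 3, 0.47 on KL1 replicate 2, -0.35 on KL-FL replicate 1 and 0.28 on KL-FL replicate 2. Within the 45 SNORD genes it was -0.51 on KL-FL replicate 3 and -0.05 on KL1 replicate 2, and within the 32 SNORA genes 0.21 and -0.09. These correlations are across genes, which share the array and are not independent replicates. Class and length go together here, and beyond the correlations within classes their parts in the values were not separated.

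**Figure D4:**
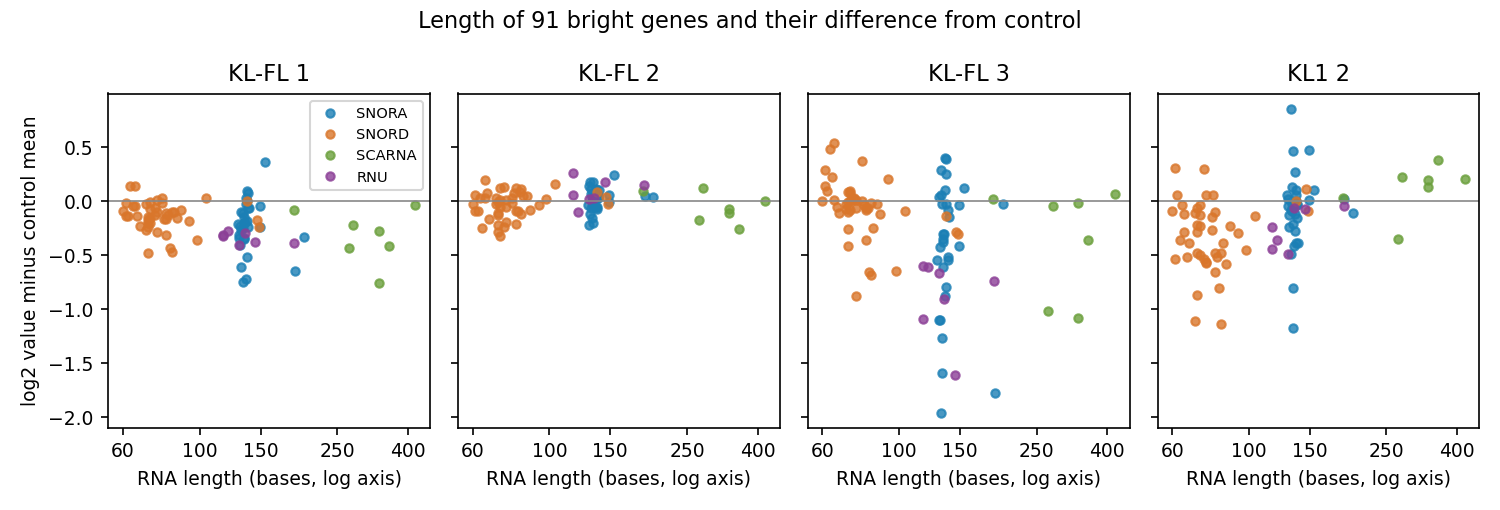
Difference from the control mean (log2, vertical axis) against RNA length in bases (log axis) for the 91 bright genes on 4 klotho arrays, coloured by class. Genes over 100 and up to 150 bases reach the lowest values on KL-FL 3 (median -0.38), while on KL1 2 those of up to 100 bases are lower (median -0.30) and the few longer ones are not (median 0.10).

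On the arrays where bright members were low, their host genes were in the median nearer to the control mean. For 47 bright members the host, taken as the shortest protein-coding or long non-coding gene span that contains the member, was itself measured. On KL-FL replicate 3 the members had a median of -0.11 and their hosts -0.04, with 33 of the 47 members below their host. On KL1 replicate 2 the medians were -0.09 and 0.00, with 29 of 47 below. On KL-FL replicate 1 they were -0.20 and 0.01, with 45 of 47 below. Over all 98 members with a measured host, dim ones included, the members were not farther from control on KL-FL replicate 3, at -0.02 against -0.04 for the hosts, nor on replicate 2, at -0.02 against 0.03. For the 19 bright SNORA genes with a measured host the medians on KL-FL replicate 3 were -0.38 for the members and -0.04 for the hosts. Members of some hosts had like values on 1 array. The 4 bright SNORD genes in RPL13A (SNORD32A, SNORD33, SNORD34 and SNORD35A) had a median of -0.55 on KL1 replicate 2 and -0.04 on KL-FL replicate 3. The 5 in GAS5 had -0.50 and 0.00, within which SNORD75 read 7.81 on KL1 replicate 2 and 7.87 to 7.96 on the controls. In RPL27A the order was turned, with SNORA3A and SNORA3B at -0.76 on KL-FL replicate 3 and -0.09 on KL1 replicate 2, and RPL27A itself at -0.18 and 0.02. The 4 bright SNORD genes in RPL23A did not go together on KL1 replicate 2, with SNORD42A at 0.31, SNORD42B at -0.39, SNORD4A at -0.03 and SNORD4B at 0.30.

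**Figure D5:**
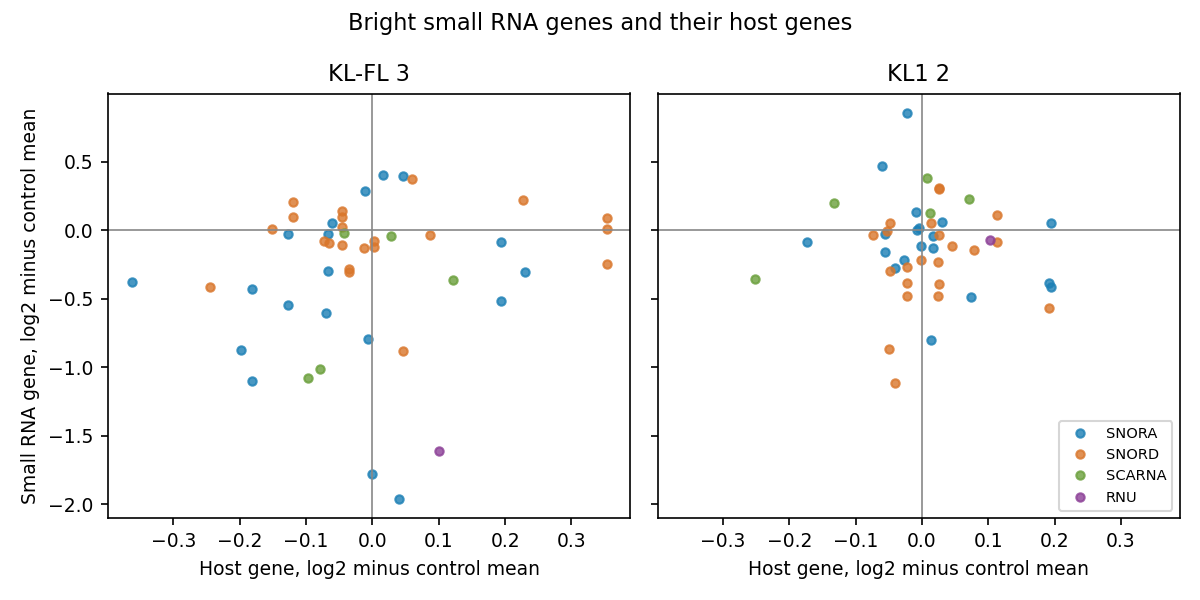
Difference from the control mean (log2) of 47 bright small RNA genes (vertical axis) against that of their host genes (horizontal axis, a narrower range) on KL-FL 3 and KL1 2, coloured by class. The small RNA genes spread farther than the hosts, with medians of -0.11 and -0.09 against host medians of -0.04 and 0.00. Of the 47 genes 33 and 29 were below their host. Single hosts lay away from 0 on KL-FL 3, such as RABGGTB at 0.35 and TBRG4 at -0.36.

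Of 8 other short RNAs measured, 7 were below all 3 controls on KL-FL replicate 3 and had their lowest value there, with a median of -0.36 over the 8. On KL-FL replicate 3, 34.6% of all genes and 44.7% of other bright genes were below all 3 controls. On KL-FL replicate 1, 7 of the 8 short RNAs were below all controls (19.0% of all genes), and on KL1 replicate 2, 5 of 8 (24.4% of all genes). RPPH1, the RNA of RNase P, lay at -0.62, -0.10 and -1.50 from the control mean on KL-FL replicates 1, 2 and 3. TERC, the telomerase RNA, was at -0.40, 0.03 and -1.36, and RMRP, the RNA of RNase MRP, at -0.29, 0.04 and -0.78. These 3 are 341, 451 and 270 bases long in RefSeq, longer than most members. RN7SK, the 7SK RNA, was at -0.07, -0.03 and -0.15, and the vault RNA genes VTRNA1-1, VTRNA1-2 and VTRNA1-3 at -0.48, -0.21 and -0.25 on KL-FL replicate 3. RNY4, a Y RNA of 96 bases, was the exception, high on KL-FL replicate 3 (0.71) and low on KL1 replicate 2 (-0.48). The 195 microRNA genes had medians between 0.01 and 0.02 on every klotho array. Their median level was low, at 3.19 on KL-FL replicate 3, where the dim members too had a median of only -0.01 from the control mean. The 58 replication-dependent histone genes, whose mRNAs also lack a poly(A) tail, had a median of -0.33 on KL-FL replicate 3 and -0.03 on KL1 replicate 2; they were added with earlier results known. None of these genes passed limma's adjusted test. RNA integrity values were not among the data used here, and the part of RNA preparation in these arrays was not tested.

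Probe sets that name several genes are outside the rule, and 89 of them include a gene of these classes. The 13 probe sets for U1, the RNA that recognises the 5′ splice site, hold 5 distinct sets of values, with medians of -0.39, 0.12 and -0.76 from the control mean on KL-FL replicates 1, 2 and 3. U3, the C/D snoRNA of early ribosomal RNA cleavage, has 5 probe sets with the same values, which read 7.80, 8.13 and 7.64 on control, 7.24, 8.01 and 6.44 on KL-FL and 7.51, 8.32 and 7.64 on KL1 arrays. At 217 bases U3 is a long C/D RNA, and it was low on KL-FL replicates 1 and 3, as the bright RNU genes were. On KL1 replicate 2 it lay 0.46 above the control mean, while the bright RNU genes had a median of -0.24 there. Of the 44 distinct bright probe sets of this kind 13 had their lowest value on KL-FL replicate 3 and 17 on KL1 replicate 2. Of other bright genes 31.5% and 15.2% had theirs there, so the count on KL-FL replicate 3 was near the background.

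The proteins that make these particles were taken from lists chosen by function. Of 3 box C/D proteins measured, 4 H/ACA proteins, 17 assembly and trafficking factors, 33 snRNP proteins, 8 SMN complex members and 25 factors of snRNA transcription and 3′ processing, 0 passed limma's adjusted test in any comparison. For KL-FL against control the median differences were -0.04 for the C/D proteins, -0.04 for the H/ACA proteins and -0.03 for the snRNP proteins, of which 0 were higher and 2 lower at an unadjusted p under 0.05 (6.06%, against 7.16% of all genes). For KL1 against control they were 0.01, 0.02 and -0.02, with 5 snRNP proteins lower at an unadjusted p under 0.05 (15.2%, against 5.1% of all genes, 2.11% lower). On KL-FL replicate 3 the C/D, H/ACA and snRNP proteins lay at -0.21, -0.10 and -0.08 from the control mean.

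The spread within groups was wider for these genes than for genes in general. The median SD over 3 arrays of the 91 bright members was 0.085 in control, 0.160 in KL-FL and 0.163 in KL1. Over all other bright genes it was 0.043, 0.068 and 0.054. For the 7 bright RNU genes it was 0.091, 0.446 and 0.140. The imprinted SNORD repeats, all dim, had 0.029, 0.041 and 0.034.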

How the data were processed

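Total RNA, 100 ng a sample, was run on 9 whole-transcript arrays, and the table of 33297 probe sets was deposited with log2 values. The submitters' processing notes name Partek 6.6. How the arrays were background-corrected and normalized is not given in the sources used here. That the scale is log2 was read from the values, which run from 1.79 to 12.4. Probe sets were named through the platform's annotation, with 19181 naming 1 gene, 2055 several and 12061 unnamed here. All 219 members matched RefSeq (GRCh38.p14) by gene ID or symbol, and 8 had several probe sets. Lengths and hosts came from that table, which gives no strand, so hosts were taken from spans alone, for 208 members; 19 lie in several spans.

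A model with 3 groups was fitted to all 17958 genes by limma 3.58.1 (R 4.3.3; lmFit and eBayes), with 6 residual degrees of freedom, two-sided, and Benjamini-Hochberg adjustment over all genes at 0.05. The fit was tested on simulated data. The members, lists and tests were chosen with earlier results of these data known. Named genes were the 3 brightest of each class, in each comparison and direction the 4 of lowest p, those with the widest spread or farthest array, and 18 measured members of a fixed list; others are said to be chosen after their values were seen. Replicate numbers were checked for pairing by the correlation of deviations from group means. Over all genes it was 0.113, 0.322 and 0.186 for control and KL1, so the numbers were taken to pair that comparison. For pairs with KL-FL it was at most 0.097. Over the members alone it was 0.108, 0.689 and 0.598 for control and KL1. The KL1 differences from control, their SEs and their p-values still come from the fit without pairing. Alternatives changed the filter, centring, probe set rule, array weights, variance, block, arrays and members.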

Additional observations from a re-analysis of the deposited data

How the results depend on the processing

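Each result was recomputed under 22 other settings. The members called stayed at 0 in every comparison and setting except with array weights. Of the 28 changes of sign among named members, none concerned a called gene. Array weights gave KL-FL replicate 1 a weight of 6.76 and KL-FL replicate 3 one of 0.265. With them, for KL-FL against control, limma's adjusted test called 523 genes (389 higher and 134 lower) and 15 members (5 higher and 10 lower). In that fit 81 members had an unadjusted p under 0.05, and the member median was -0.048. The differences of SNORD57, SNORD33, SCARNA17, SCARNA16 and SNORD44 turned to -0.0081, -0.089, -0.026, -0.063 and -0.022. With weights 2 genes were called for KL1 against control and 1 for KL-FL against KL1, where 48 members had an unadjusted p under 0.05 and the medians were -0.015 over all members and 0.0079 over SNORD. The weighted KL-FL means rest mainly on replicate 1, and why the arrays differ in weight was not tested. The share of all genes at an unadjusted p under 0.05 is not given for array weights. The counts of 81 and 48 members therefore have no background to be read against.

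The genes called for KL-FL against control went from 1 to 0 with every probe set tested, with the replicate block, with each gene's own variance and with only the 6 arrays compared; limma called 1286 at an unadjusted p under 0.05. The genes called for KL1 against control went from 1 to 0 with every probe set tested, with the block and with each gene's own variance. With each gene's own variance 1 gene was called for KL-FL against KL1, and 11 and 9 members had an unadjusted p under 0.05 for KL-FL against control and against KL1. For KL-FL against KL1 that count was 8 with only the 6 arrays compared and 8 without genes below the median level. It was 30 with the replicate block, whose numbers do not pair those arrays. For KL1 against control it was 9 without genes below the median level, and the block raised it, as given above. No member passed limma's adjusted test with the block. The share of all genes at that p is not given for these settings either, so these counts are not read as a result about the members.

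Median centring moved the SNORD median for KL-FL against control to -0.022 and turned SNORD57 and SNORD33 to -0.0043 and -0.0062; the mean of a gene's probe sets turned SCARNA17 to -0.0039. Means in place of medians gave -0.091 over all members, -0.12 over SNORA and -0.027 over SNORD for KL-FL against control. They gave -0.070 over all and -0.076 over SNORD for KL1 against control, and -0.021, -0.072 and 0.048 over all, SNORA and SNORD for KL-FL against KL1. Without the imprinted repeats the medians were -0.058 over all and -0.040 over SNORD for KL-FL, -0.087 and -0.12 for KL1, and 0.072 over SNORD for KL-FL against KL1. With only members at or above the median level, chosen after seeing the data, and likewise without genes below it, the medians over all, SNORA and SNORD were -0.10, -0.19 and -0.056 for KL-FL. They were -0.093, -0.065 and -0.12 for KL1, and -0.012, -0.13 and 0.055 for KL-FL against KL1.

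Leaving out 1 array at a time, or both KL-FL replicate 3 and KL1 replicate 2 (chosen after seeing the data), called 0 to 1 genes for KL-FL against control and 0 to 2 for KL1 against control. Members at an unadjusted p under 0.05 numbered 9 to 49 for KL-FL against control (lowest without control replicate 2, highest without KL-FL replicate 2, and 33 without both arrays). Over all 17958 genes the share was 9.56% without KL-FL replicate 2, and 1281 were higher and 353 lower without both arrays. Such members numbered 9 to 26 for KL1 against control (without control replicate 2 and without KL-FL replicate 3), where 643 of all genes were higher and 568 lower in the latter setting. For KL-FL against KL1 they numbered 11 to 52 (without both arrays and without KL-FL replicate 2). Over all genes that was 5.87% without both arrays, and 793 higher and 689 lower without KL-FL replicate 2. The share without control replicate 2 is not given. The SNORD median ran from -0.015 to -0.0048 for KL-FL against control, from -0.052 to -0.017 for KL1 against control and from 0.0039 to 0.040 for KL-FL against KL1. The median of all members ran from -0.052 to -0.024 for KL1 against control and from -0.010 to 0.016 for KL-FL against KL1, and the SNORA median from -0.073 to -0.036 for KL1 against control. The KL-FL difference changed sign for SNORD13 (-0.042 to 0.098), SNORD57 (-0.012 to 0.018), SNORD33 (-0.056 to 0.078), SCARNA17 (-0.016 to 0.032), SCARNA16 (-0.033 to 0.055), SNORA14A (-1.12 to 0.072), RNU4-2 (-0.80 to 0.12), RNU6ATAC (-0.19 to 0.026), RNU12 (-0.23 to 0.023), SCARNA5 (-0.13 to 0.040) and SCARNA6 (-0.40 to 0.042). Without detection calls, a dim probe set may stand for an RNA that is rare or absent. With 3 arrays a group, precision is limited throughout.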
